A study of Mus musculus with 6 samples.

Results

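Voltage-gated calcium channels, voltage-gated sodium channels and the transient receptor potential (TRP) channels carry the inward currents that depolarise excitable cells. The 67 rows of the deposited count table whose symbols begin with Cacna, Cacnb or Cacng, with Scn and a digit, with Trpa, Trpc, Trpm or Trpv and a digit, or with Mcoln and a digit were taken out of 24421 genes. Of these 67 rows, 31 reached at least 1 CPM (counts-per-million, scaled to library size by the TMM method) in 3 or more of the 6 libraries and are described here. A pair of rows matched the symbol pattern without being a channel subunit: Trpc4ap, a protein that associates with a TRPC channel, and Trpc5os, a transcript opposite Trpc5 that had no count.

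The study sequenced RNA from isolated pancreatic islets of mice on a C57BL/6J background, with 3 control libraries and 3 labelled as a β cell Dhps knockout. Dhps encodes deoxyhypusine synthase, which modifies the translation factor eIF5A with spermidine. The label of these 3 names loxP sites in Dhps and MIP1-CreERT, a tamoxifen-activated Cre under a mouse insulin promoter. The labels did not give the Cre status of the controls, any tamoxifen dosing, the age of the mice or the meaning of the prefix HF in the sample names, and separate animals are not named for the replicates, so a p-value covers the spread between these samples, which may be technical.

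In a β cell, closure of ATP-sensitive potassium channels lets the membrane depolarise, voltage-gated calcium channels open, and calcium entry triggers insulin granule release. A calcium channel is built from a pore-forming α1 subunit with an intracellular β subunit and an extracellular α2δ subunit that set how many channels reach the membrane and how they gate. Sodium channels shape the action potential, and the calcium-activated channels Trpm4 and Trpm5 and the adenosine diphosphate ribose-gated Trpm2 add depolarising background current.

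The libraries held 21027737 to 23249895 counts, and the summed level of 11 β cell markers was 367200 to 496000 CPM in the controls and 393600 to 448200 CPM under the knockout label. Ins2 alone was at 355300 CPM of the 496000 in control 1, so the sum mostly follows Ins2 and says little of the other markers. Of those 11 markers 5 were called lower and 0 higher, with a median log2 fold change of −0.65. Dhps itself was between 12.03 and 13.4 CPM in the controls and between 11.4 and 12.7 CPM under the knockout label. Its log2 fold change was −0.07 ± 0.12 (SE, edgeR adjusted p = 0.742), so the counts did not separate the groups. The exons of Dhps overlapped Wdr83. The labels do not say which exons are flanked, and counts over the whole gene can miss the loss of a part, so the directions below refer to labels. Summed acinar, myeloid, stellate cell and fibroblast, and endothelial markers were higher under the knockout label. Summed delta, PP and epsilon cell markers were also higher, from 7383 to 14830 CPM in the controls and from 17950 to 20620 CPM in the others. The sums of alpha cell markers and of Schwann cell and neuron markers overlapped between the labels. Of 9 alpha cell markers 0 were called higher and 1 lower, with 7 positive log2 fold changes and a median of 0.30. Of 10 tested Schwann cell and neuron markers 0 were called, with 8 positive log2 fold changes and a median of 0.30. Summed acinar markers ran from 1290 to 14490 CPM in the controls and from 34530 to 39220 CPM in the others, with 1 of 27 tested markers called higher, and Cpa3, a mast cell gene that stood in that list, was at 0 in each library. Summed myeloid markers ran from 219 to 234 CPM against 357 to 472 CPM, with 7 of 17 called higher. Stellate cell and fibroblast markers ran from 201 to 480 CPM against 549 to 709 CPM (6 of 16 called higher), and endothelial markers from 409.8 to 533 CPM against 580.0 to 683 CPM (5 of 14 called higher). In whole islets, fewer cells of a type and less RNA per cell cannot be told apart.

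Of the 31 rows, 3 fell, 1 rose and 27 were not called at an adjusted p under 0.05, using the quasi-likelihood test of edgeR and the Benjamini-Hochberg adjustment over 13736 genes. The 3 that fell were Trpm5, Cacna1a and Cacnb2, and the 1 that rose was Trpv2. Over all tested genes 6.76% were called, 2.63% lower and 4.14% higher, against 9.68% and 3.23% of these 31. A negative log2 fold change was seen for 22 of the 31, which is 71.0% against 49.1% of all tested genes, and the median was −0.16 against 0.01 over all genes. The 3 knockout-labelled libraries all lay below the 3 controls for 8 rows and all above for 2, where 15.2% and 16.9% of all tested genes did so. At an unadjusted p under 0.05 there were 8 lower and 1 higher of the 31, where 11.6% and 14.9% of all tested genes passed. No test compared the 31 with other genes.

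These counts moved with single libraries. Without control 2 or knockout-labelled replicate 1 edgeR called 0 of the 31 lower (6 and 5 at an unadjusted p under 0.05), without control 3 or knockout-labelled replicate 3 it called 1, and the 1 call in the other direction, Trpv2, held on leaving out 1 library only without knockout-labelled replicate 3. Calls lower over all genes went from 361 to 12 without control 2, 42 without control 3, and 8 and 83 without knockout-labelled replicates 1 and 3, so calls were lost across all genes in the same fits. With the mean log2 level of the acinar markers, or of the myeloid markers, as a covariate, edgeR called 0 of the 31 in either direction, against 3 lower and 0 higher, or 2 lower and 2 higher, at an unadjusted p under 0.05. Under the acinar covariate the log2 fold changes stayed near those reported, at −1.57 for Trpm5, −0.84 for Cacna1a, −0.47 for Cacnb2 and 1.07 for Trpv2. In that fit edgeR called 0 of all tested genes (620 lower and 806 higher unadjusted). Standard errors were larger, at 0.60 against 0.40 for Trpm5 and 0.23 against 0.14 for Cacna1a. Summed acinar markers did not overlap between the labels, so this fit cannot fully separate acinar content from label.

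**Figure D1:**
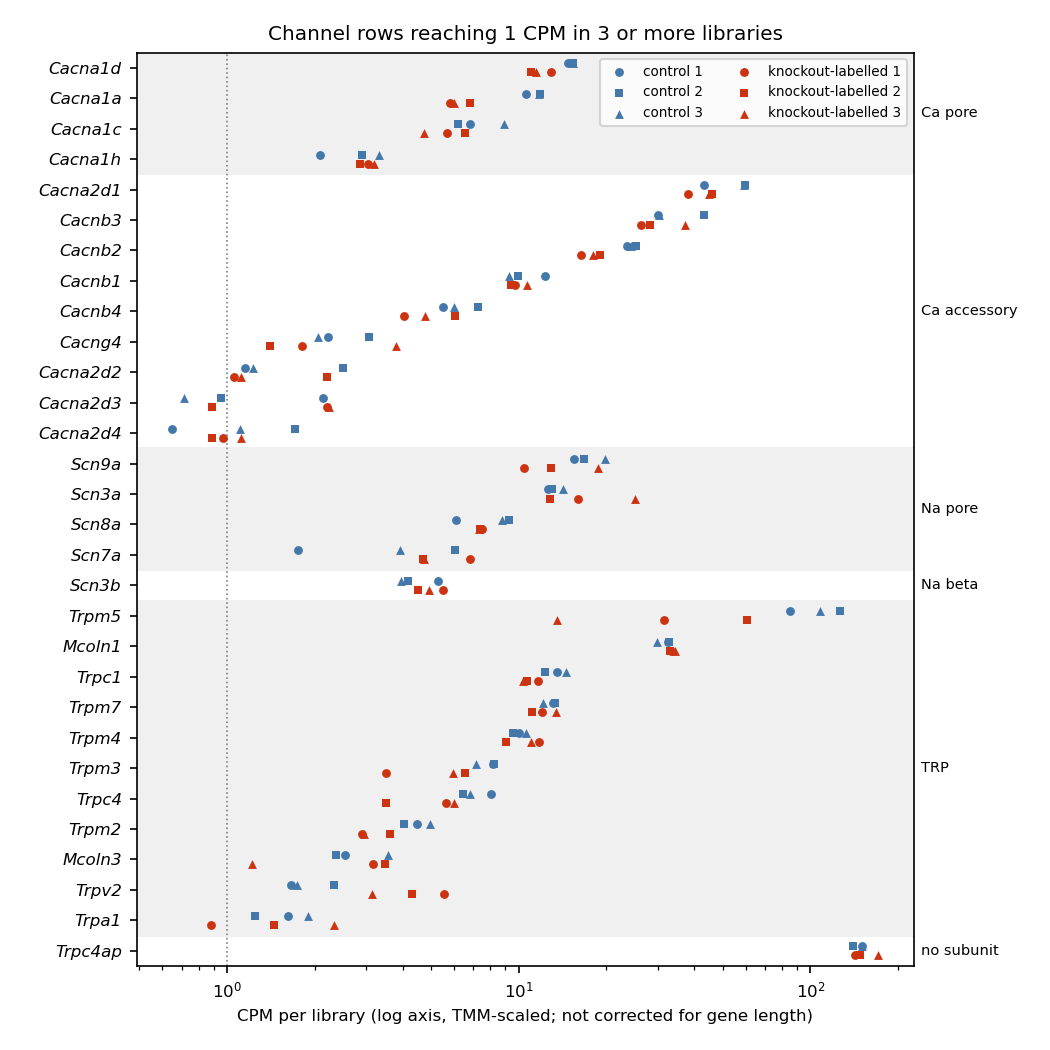
Level of 30 of the 31 rows in each library, in CPM on a log axis (not corrected for gene length), grouped by class, with controls in blue, knockout-labelled libraries in red and symbols for replicate number. Levels ran from below 1 CPM to 171 CPM. The groups do not overlap for the 4 called genes, Trpm5, Cacna1a, Cacnb2 and Trpv2. They also do not overlap for Cacna1d, Trpc1, Trpc4, Trpm2, Trpm3 and Mcoln1, which were not called. In all, 8 rows lay lower and 2 higher, beside 15.2% and 16.9% of all tested genes.

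The calcium channel pore subunits were led by the L-type gene Cacna1d and the P/Q-type gene Cacna1a. Per kilobase of exon, Cacna1d stood at 1.62 ± 0.0383 CPM per kb in the controls (SD, n = 3), Cacna1a at 1.44 ± 0.0841, the L-type gene Cacna1c at 0.495 ± 0.0971 and the T-type gene Cacna1h at 0.337 ± 0.0768. In each control Cacna1d was above Cacna1a, with ratios of Cacna1a to Cacna1d of 0.851, 0.914 and 0.896. Cacna1c and Cacna1h were well below both.

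Cacna1a fell. It was at 10.6, 11.9 and 11.7 CPM in controls 1 to 3 and at 5.81, 6.81 and 5.99 CPM in knockout-labelled libraries 1 to 3. The groups did not overlap, and the libraries within each lay close together. The mean went from 11.4 ± 0.667 to 6.20 ± 0.535 CPM, with a log2 fold change of −0.88 ± 0.14 (SE; 95% interval −1.20 to −0.56; adjusted p = 0.0158). Cacna1a lies on chromosome 8 from 84415364 to 84640249 (mm10, plus strand, 47 listed exons). The call was lost without control 2 (adjusted p = 0.0641) and without knockout-labelled replicate 1 (adjusted p = 0.0579), where the log2 fold changes were −0.86 and −0.83.

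Cacna1d, which encodes the Cav1.3 L-type channel pore, was at 14.8, 15.3 and 15.4 CPM in the controls and at 12.9, 11.04 and 11.5 CPM under the knockout label. The groups did not overlap, but the difference did not pass the threshold (log2 fold change −0.36 ± 0.12, adjusted p = 0.0914). Its exons overlapped Chdh, which had a mean of 26 counts. Cacna1c was at 6.80, 6.21 and 8.93 CPM against 5.67, 6.53 and 4.72 CPM, and knockout-labelled replicate 2 lay within the control range (−0.37 ± 0.20, adjusted p = 0.269). For Cacna1h the control values of 2.08, 2.92 and 3.32 CPM enclosed the knockout-labelled values of 3.035, 2.865 and 3.20 CPM (0.13 ± 0.27, adjusted p = 0.805). Of the 4 pore subunits, 1 fell, 0 rose and 3 were not called, with a median of −0.37. DESeq2 and limma-voom also called 1 lower and 0 higher, and at an unadjusted p under 0.05 edgeR gave 2 lower and 0 higher of 4, beside 11.6% and 14.9% of all tested genes.

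The makeup of the pore transcripts differed between the labels. Cacna1a made up 36.9%, 38.3% and 35.7% of the summed CPM per kb of the 4 pore subunits in the controls and 25.5%, 30.4% and 28.1% under the knockout label. Cacna1h made up 8.60% ± 1.46 and 13.2% ± 1.11, and Cacna1d 41.7% ± 1.77 and 45.2% ± 3.27 (SD, n = 3 each). The summed level itself was 3.89 ± 0.251 CPM per kb in the controls and 2.795 ± 0.0933 under the knockout label. These shares follow from the same counts and were not tested.

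**Figure D2:**
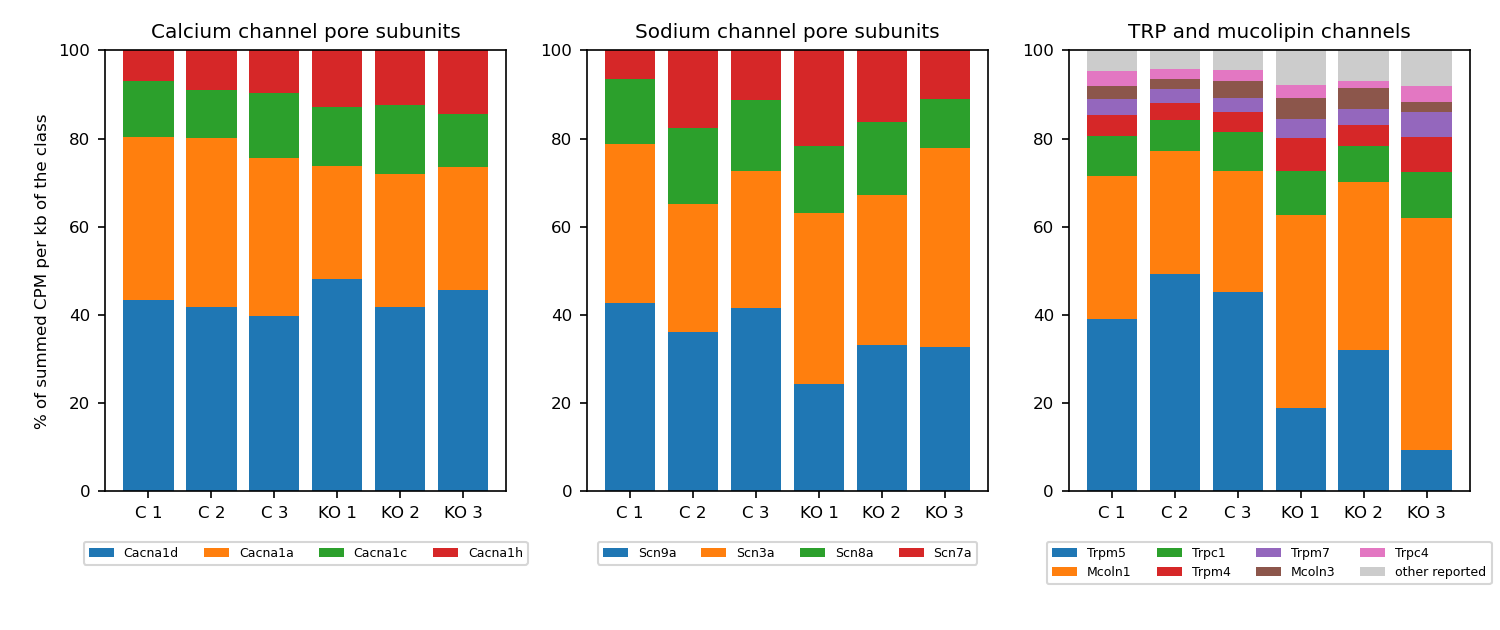
Share of each subunit in the summed CPM per kb of its class in each library (C, control; KO, knockout-labelled), for calcium channel pore subunits, sodium channel pore subunits, and TRP and mucolipin channels; bars add up to 100%. Cacna1a and Trpm5 take smaller shares in each knockout-labelled library than in each control.

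The other 6 pore genes stayed below the level. The N-type gene Cacna1b gave 19, 33 and 24 counts in the controls against 12, 16 and 8 under the knockout label (log2 fold change −0.92 ± 0.44, adjusted p = 0.214), and the groups did not overlap. The T-type gene Cacna1g had 12 to 33 counts a library, and its groups overlapped. Cacna1e, the R-type pore subunit, gave 0, 2 and 0 counts in the controls against 1, 10 and 5 under the knockout label. Cacna1f, Cacna1i and Cacna1s had at most 13 counts in any library.

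Among the calcium channel accessory subunits, Cacnb2 fell. This β subunit, which binds the pore subunit inside the cell, was at 23.6, 25.3 and 24.3 CPM in the controls and at 16.3, 19.02 and 17.9 CPM under the knockout label. The lowest control stood above the highest knockout-labelled library. The log2 fold change was −0.46 ± 0.11 (95% interval −0.69 to −0.22; adjusted p = 0.0350). Cacnb2 lies on chromosome 2 from 14604306 to 14987908 (mm10, plus strand, 16 listed exons). Its call was lost without control 2 (adjusted p = 0.110), control 3 (0.0953), knockout-labelled replicate 1 (0.1125) or replicate 3 (0.0722).

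Cacnb3, the most abundant accessory subunit per kilobase, was at 29.9, 43.3 and 30.3 CPM in the controls and at 26.3, 28.3 and 37.1 CPM under the knockout label. The groups overlapped (−0.18 ± 0.17, adjusted p = 0.552). Per kilobase it stood at 11.45 ± 2.52 CPM per kb in the controls, above Cacna2d1 at 7.21 ± 1.26, Cacnb2 at 5.48 ± 0.191 and Cacnb1 at 2.73 ± 0.424. The lowest control value of Cacna2d1, 5.76 CPM per kb, lay just above the highest of Cacnb2, 5.68, so their order is close to the spread.

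Cacna2d1, the leading α2δ subunit and a binding site of gabapentin, was at 43.2, 59.7 and 59.1 CPM in the controls and at 38.2, 45.9 and 44.8 CPM under the knockout label. Control 1 lay below knockout-labelled replicates 2 and 3. The log2 fold change was −0.33 ± 0.14 (adjusted p = 0.164), and without control 1 it was −0.47 with an adjusted p of 0.0460. Cacnb1 (−0.08 ± 0.15), Cacnb4 (−0.34 ± 0.21) and the γ family gene Cacng4 (−0.07 ± 0.40) were not called. Neither were the other α2δ genes Cacna2d2 (−0.16 ± 0.45), Cacna2d3 (0.50 ± 0.50) and Cacna2d4 (−0.22 ± 0.43), each near the 1 CPM level.

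Of the 9 reported accessory subunits, 1 fell, 0 rose and 8 were not called, 8 had a negative log2 fold change, and the median was −0.18. DESeq2 and limma-voom gave the same counts of 1 lower and 0 higher, and at an unadjusted p under 0.05 edgeR gave 2 lower and 0 higher of 9, beside the same 11.6% and 14.9%. The 7 accessory genes below the level were all γ subunits: Cacng2 and Cacng3 had 1 to 14 counts a library, Cacng8 had none, and the remaining 4 had at most 5.

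**Figure D3:**
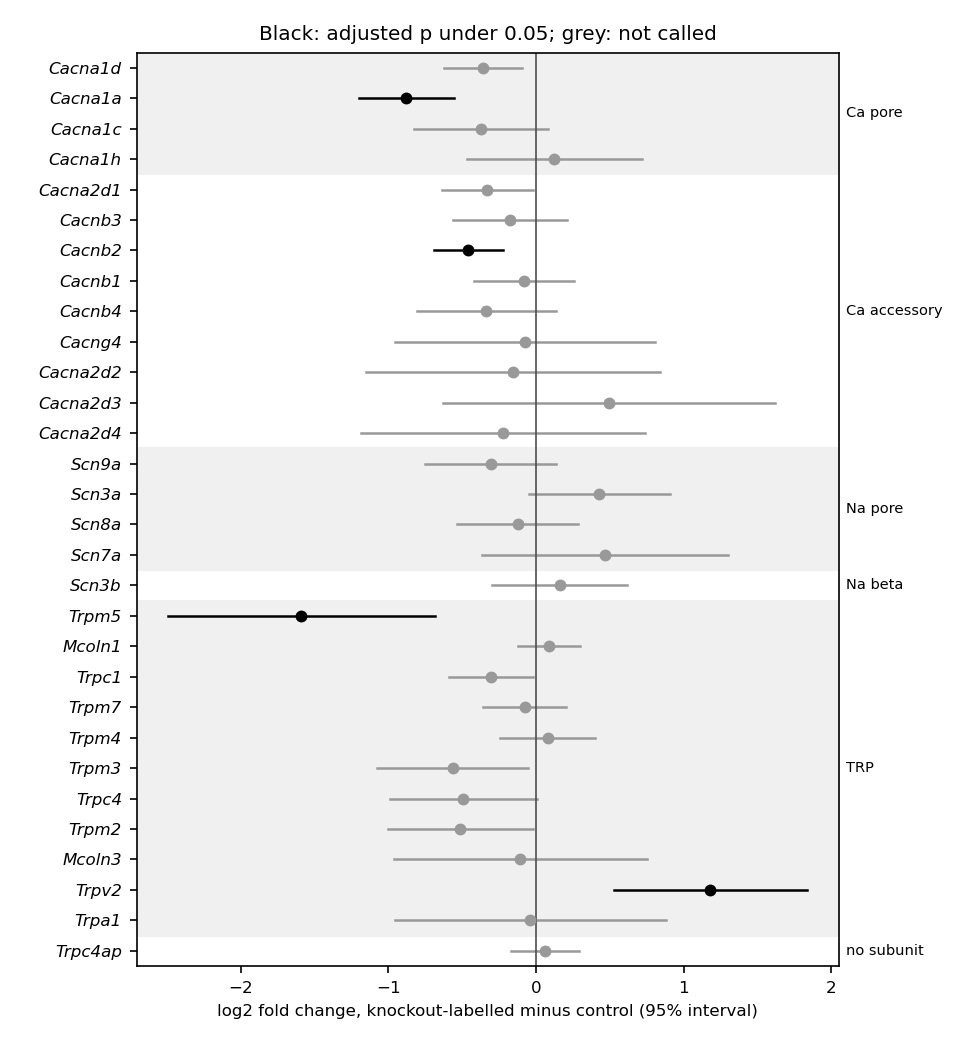
Log2 fold change of 30 of the 31 rows, knockout-labelled minus control, with 95% intervals from edgeR's quasi-likelihood test. Black points are the 4 called rows, with Trpm5 at −1.59, Cacna1a at −0.88, Cacnb2 at −0.46 and Trpv2 at 1.18, and grey points were not called.

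None of the voltage-gated sodium channel genes was called. The 4 reported pore subunits and 2 reported β subunits held 0 calls by edgeR, by DESeq2 and by limma-voom, and none had an unadjusted edgeR p under 0.05. The median log2 fold change was 0.15 for the pore subunits.

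Scn9a, which encodes Nav1.7, was at 15.5, 16.8 and 19.7 CPM in the controls and at 10.4, 12.96 and 18.8 CPM under the knockout label. Knockout-labelled replicates 1 and 2 lay below the controls and replicate 3 lay within their range (−0.31 ± 0.20, adjusted p = 0.357). Scn3a, which encodes Nav1.3, was at 12.6, 12.99 and 14.2 CPM in the controls and at 16.0, 12.8 and 24.98 CPM under the knockout label. Replicate 3 was the highest of the 6 and replicate 2 lay within the control range (0.43 ± 0.21, 95% interval −0.05 to 0.91, adjusted p = 0.233).

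The ratio of these neighbours, a comparison chosen after their values were seen, stood apart between labels. Per kilobase, Scn3a over Scn9a was 0.842, 0.805 and 0.750 in the controls and 1.59, 1.025 and 1.38 under the knockout label, so the leading sodium channel pore transcript was Scn9a in each control and Scn3a, by a small margin in replicate 2, in each knockout-labelled library. The ratio was not tested, and whole islets hold several cell types. Summed alpha cell markers were 58030, 37720 and 41770 CPM in the controls. Under the knockout label they were 50590, 55610 and 67950 CPM, highest in replicate 3, where Scn3a was also highest. The part of cell content in the ratio was not tested. The genes lie in one cluster on chromosome 2 (mm10, minus strand): Scn3a from 65457118 to 65567492, Scn9a from 66480081 to 66634962 and Scn7a from 66673426 to 66784910. Between Scn3a and Scn9a lie Scn2a1 and Scn1a, which had at most 12 counts in any library.

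Scn8a, which encodes Nav1.6, was at 6.11, 9.25 and 8.78 CPM against 7.48, 7.37 and 7.31 CPM (−0.12 ± 0.18, adjusted p = 0.709). Scn7a, a channel of Schwann cells and stromal cells that responds to sodium level, was at 1.76, 6.04 and 3.91 CPM against 6.82, 4.70 and 4.72 CPM (0.47 ± 0.37, adjusted p = 0.461), with control 1 far below the rest. Summed stellate cell and fibroblast markers were 201, 333.5 and 479.6 CPM in controls 1 to 3, lowest in control 1 but highest in control 3, whose Scn7a was below that of control 2. Summed Schwann cell and neuron markers were 244, 205 and 209 CPM in these controls, highest in control 1, and 216 to 226 CPM under the knockout label, with 0 of 10 called by edgeR, DESeq2 or limma-voom and 1 below an unadjusted edgeR p of 0.05.

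The β subunits modulate gating and surface level of the pore subunits. Scn3b was at 5.27, 4.165 and 3.95 CPM against 5.50, 4.51 and 4.92 CPM (0.16 ± 0.21, adjusted p = 0.666). Below the level, the sensory neuron genes Scn10a and Scn11a and the muscle gene Scn4a had at most 12 counts in any library, with Scn10a at none, and Scn2b and Scn4b had at most 24.

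The TRP channels held the largest difference of the 31 rows. Trpm5, a calcium-activated monovalent cation channel of β cells and taste cells, was at 85.2, 126 and 108 CPM in the controls and at 31.6, 60.8 and 13.55 CPM under the knockout label. The groups did not overlap, and the knockout-labelled libraries differed among themselves by more than the controls did, with replicate 3 lowest. The mean went from 106 ± 20.5 to 35.3 ± 23.8 CPM, with a log2 fold change of −1.59 ± 0.40 (95% interval −2.49 to −0.69; adjusted p = 0.0471). The call was close to the threshold: it was lost with DESeq2 (adjusted p = 0.0521) and upper-quartile factors (0.0502), and held on leaving out 1 library only without knockout-labelled replicate 2. Leaving out control 1, 2 or 3 gave adjusted p-values of 0.0514, 0.147 and 0.103, and leaving out knockout-labelled replicate 1 or 3 gave 0.137 and 0.0509, with log2 fold changes from −1.73 to −1.21. Of the 11 β cell markers, the 5 called lower were Glp1r, Ucn3, Nkx6-1, Slc2a2 and Slc30a8, each also lowest in knockout-labelled replicate 3. The other 6 were not called. The part of β cell content in the results for Trpm5, Cacna1a and Cacnb2 was not tested.

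Per kilobase, Trpm5 was the highest channel subunit of the controls, at 24.3 ± 4.67 CPM per kb, and under the knockout label it stood at 8.06 ± 5.44, below Mcoln1 at 16.8 ± 0.368. Its share of the 11 reported TRP and mucolipin genes was 39.0%, 49.2% and 45.2% in the controls and 18.9%, 32.0% and 9.43% under the knockout label. Trpm4, its closest relative and also calcium-activated, was at 9.99, 9.58 and 10.6 CPM against 11.7, 9.065 and 11.02 CPM (0.08 ± 0.14, adjusted p = 0.768). The ratio of Trpm5 to Trpm4 per kilobase, chosen after the values were seen, went from 8.26, 12.75 and 9.885 in the controls to 2.60, 6.49 and 1.19.

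Trpv2 rose. This calcium-permeable channel, known from macrophages, endothelium and muscle as well as β cells, was at 1.665, 2.33 and 1.74 CPM in the controls and at 5.54, 4.32 and 3.15 CPM under the knockout label. The counts were 36, 56 and 44 against 126, 92 and 62, and the groups did not overlap. The log2 fold change was 1.18 ± 0.29 (95% interval 0.53 to 1.83; adjusted p = 0.0439). The same libraries held more myeloid, stromal and endothelial transcripts, at the values given above, and their part in the Trpv2 result was not tested. The call was lost with the replicate number as a block (adjusted p = 0.0604) and without control 1 (0.0752), control 2 (0.0955), control 3 (0.128), knockout-labelled replicate 1 (0.142) or replicate 2 (0.0770).

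**Figure D4:**
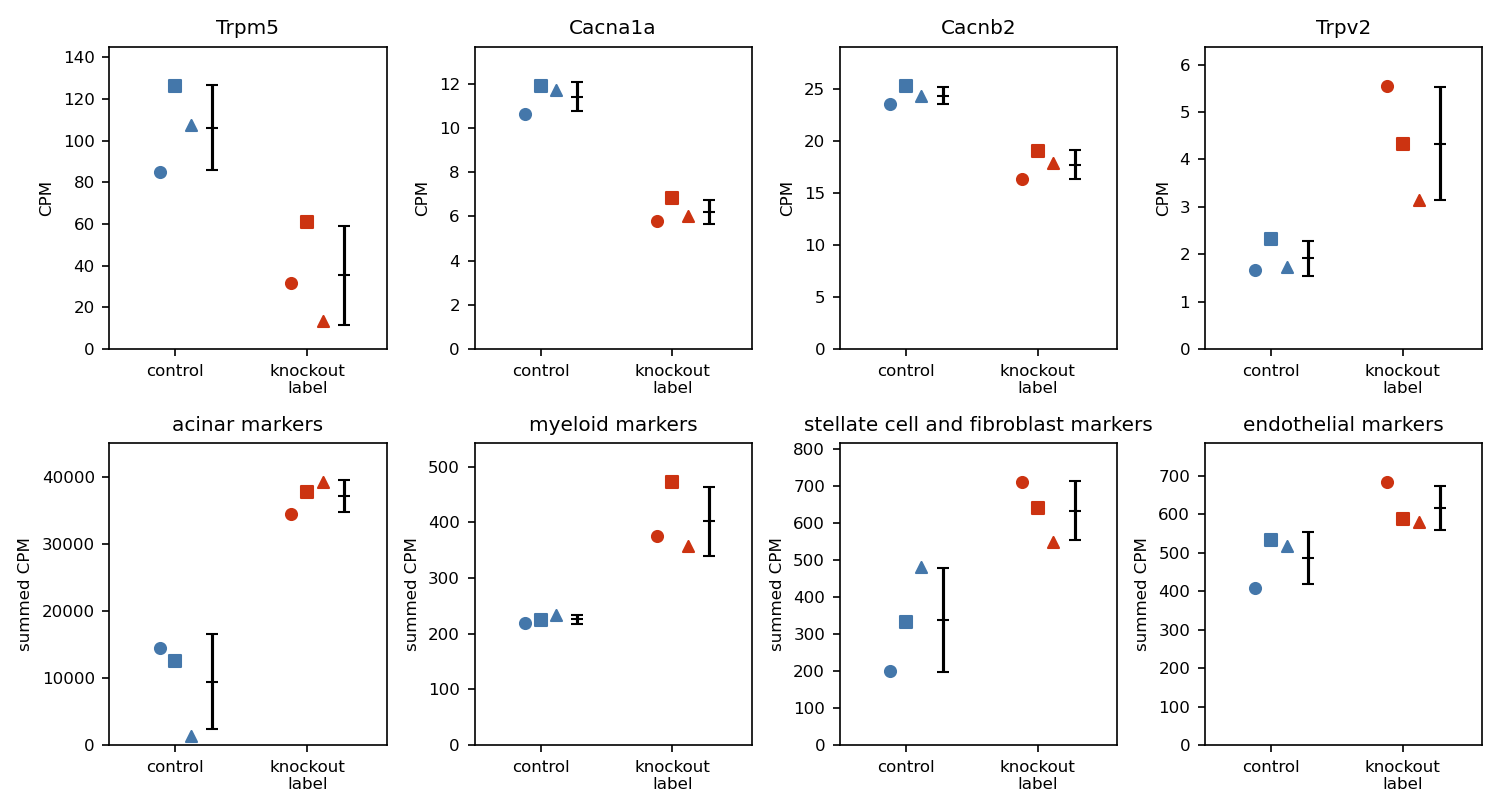
Top row: CPM of the 4 called genes in each library. Bottom row: summed CPM of acinar, myeloid, stellate cell and fibroblast, and endothelial markers in the same libraries. Axes start at 0, symbols give the replicate number, and bars are mean ± SD over 3 libraries. All 8 panels show groups that do not overlap.

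The sequence before the start site is shown for the pair of TRP genes that were called, because they moved in opposite directions. The window is the 200 bases upstream of the RefSeq start site (GRCm38.p6, the assembly of mm10), and in both genes that start site is the gene boundary of the count table. Trpm5 lies at chr7:143094643-143094842 on the minus strand, and its gene runs from 143071529 to 143094642 in 25 listed exons. Trpv2 lies at chr11:62574286-62574485 on the plus strand, and its gene runs from 62574486 to 62600305 in 16 listed exons. Capitals mark a match to one of 8 motifs, searched on both strands.
Trpm5: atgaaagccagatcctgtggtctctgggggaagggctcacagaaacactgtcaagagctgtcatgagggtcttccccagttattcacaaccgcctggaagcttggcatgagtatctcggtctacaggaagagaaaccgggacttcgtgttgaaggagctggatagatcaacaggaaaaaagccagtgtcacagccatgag
Trpv2: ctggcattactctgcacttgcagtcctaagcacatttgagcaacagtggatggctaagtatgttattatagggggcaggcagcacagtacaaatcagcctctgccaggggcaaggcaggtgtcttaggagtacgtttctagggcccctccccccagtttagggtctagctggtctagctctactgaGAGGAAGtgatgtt
The motifs, with the share of 32851 promoter windows of the same length that hold each, were the GC box GGGCGG (31.0%), a NEUROD1 E-box CAGATG (11.6%), a homeodomain core TAATTA (3.73%), a FOXA core TGTTTAC (2.51%), a MAF half-site TGCTGAC (3.21%), the cyclic AMP response element TGACGTCA (1.47%), a TATA box TATAAA (9.96%) and the core GAGGAAG of PU.1, a myeloid factor (8.84%). No motif contains another. The Trpm5 window held none of the 8, and the Trpv2 window held 1, the letters of the PU.1 core starting 14 bases before the start site. A match is of letters only, and neither binding nor a part in the Trpv2 result was tested. GC content was 51.0% and 51.5%, against a median of 53.0% over all windows.

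Trpm2, Trpm3 and Trpm7 did not pass the test, and Trpm1, Trpm6 and Trpm8 were too low to be tested. Trpm2, opened by adenosine diphosphate ribose and calcium, was at 4.49, 4.04 and 4.98 CPM against 2.90, 3.62 and 2.94 CPM, and the groups did not overlap (−0.51 ± 0.22, adjusted p = 0.173). Trpm3, a channel opened by pregnenolone sulfate, was at 8.19, 8.25 and 7.155 CPM against 3.52, 6.53 and 5.94 CPM, again without overlap (−0.56 ± 0.23, adjusted p = 0.155). Trpm7, a channel and kinase that carries magnesium, was at 13.1, 13.3 and 12.1 CPM against 12.01, 11.08 and 13.45 CPM (−0.08 ± 0.13, 95% interval −0.36 to 0.21, adjusted p = 0.741).

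Of the TRPC genes, which carry receptor-operated currents, Trpc1 was at 13.55, 12.3 and 14.6 CPM against 11.7, 10.7 and 10.4 CPM (−0.31 ± 0.13, adjusted p = 0.161). Trpc4 was at 8.05, 6.46 and 6.80 CPM against 5.63, 3.52 and 5.99 CPM (−0.49 ± 0.22, adjusted p = 0.195). Neither gene's groups overlapped. Trpc4ap, which is no channel subunit, lay between 140.0 and 151 CPM in the controls and between 142 and 171 CPM in the others (0.06 ± 0.10, adjusted p = 0.751).

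The mucolipins are cation channels of lysosomes and endosomes. Mcoln1 was at 32.4, 32.7 and 29.7 CPM in the controls and at 33.3, 33.1 and 34.5 CPM under the knockout label. All 3 knockout-labelled values lay above the controls by a small margin (0.09 ± 0.09, 95% interval −0.12 to 0.30, adjusted p = 0.582). Mcoln3 was at 2.54, 2.37 and 3.56 CPM against 3.17, 3.48 and 1.22 CPM, with knockout-labelled replicate 3 lowest (−0.11 ± 0.38, adjusted p = 0.894). Mcoln2 was below the level, with 0 counts in each control and 3, 13 and 3 under the knockout label. The irritant receptor Trpa1 was at 1.62, 1.25 and 1.90 CPM against 0.880, 1.46 and 2.335 CPM (−0.04 ± 0.41, adjusted p = 0.9685).

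Of the 11 reported TRP and mucolipin genes, 1 fell, 1 rose and 9 were not called, with a median of −0.11, and 8 had a negative log2 fold change. Non-overlapping groups were seen for 5 lower and 2 higher, beside 15.2% and 16.9% of all tested genes. At an unadjusted p under 0.05 edgeR gave 4 lower and 1 higher of the 11, beside 11.6% and 14.9% of all tested genes. DESeq2 called 0 lower and 1 higher of the 11. At an unadjusted DESeq2 p under 0.05, 3 of the 11 were lower, beside 1503 of 13736 genes.

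The genes nearest the level show what it left out. Just inside were Cacna2d3 and Cacna2d4, at 1 CPM or more in 3 libraries each, and just outside was Trpv4, in 2 libraries. Trpv4, an osmosensitive channel, gave 21, 10 and 13 counts in the controls against 80, 15 and 26 under the knockout label (1.55 ± 0.61, adjusted p = 0.141), so that replicate 1 carried the difference. Trpc6 had 14, 8 and 4 against 24, 15 and 15 counts (1.16 ± 0.55, adjusted p = 0.212). Of the 36 rows below the level, 7 were tested, and edgeR, DESeq2 and limma-voom called 0 of them, with 1 at an unadjusted edgeR p under 0.05. No reported row reached the level through 1 group only, and 28 of the 31 were at 1 CPM or more in all 6 libraries. Besides Cacng8, Scn10a and Trpc5os, the rows with no count in any library were Trpc2, the cold receptor Trpm8 and the epithelial calcium channel Trpv5. The exons of Trpc2 overlapped Xndc1 and Xntrpc, the higher of which had a mean of 20 counts, so its reads may not have been counted. The exons of Cacng8 overlapped Gm23450, which had a mean of 0 counts. Apart from Trpc2, each gene without a count in 134306391 could still have been present at up to 0.0223 CPM. That bound is on unscaled totals and covers counting error only.

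The partners of these channels were counted from lists chosen with earlier results of these data known. Over all tested genes edgeR called 361 lower (2.63%) and 568 higher (4.14%). DESeq2 called 712 lower and 990 higher over all genes, and limma-voom 354 lower and 537 higher. Of 15 tested regulators of calcium and sodium channels, 1 fell, 0 rose and 14 were not called (median 0.05). The gene that fell was Gem, a small GTPase of the RGK family that binds calcium channel β subunits and lowers calcium current. It was at 114, 146 and 173 CPM in the controls and at 86.6, 101 and 53.8 CPM under the knockout label, without overlap (−0.84 ± 0.22, adjusted p = 0.0490).

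Of 13 tested genes of store-operated entry and of calcium release from the endoplasmic reticulum and lysosomes, 1 rose, 1 fell and 11 were not called by edgeR (median −0.02), while DESeq2 called 1 higher and 2 lower. Cd38, an ectoenzyme that makes cyclic ADP-ribose, rose from 5.32, 5.37 and 7.27 to 10.47, 11.6 and 10.4 CPM (0.85 ± 0.17, adjusted p = 0.0260). Itpr2, an inositol trisphosphate receptor, fell from 15.7, 17.4 and 20.6 to 10.2, 12.02 and 5.74 CPM (−0.94 ± 0.23, adjusted p = 0.0435). For both genes the groups did not overlap. Summed myeloid, stromal and endothelial markers were also higher under the knockout label, and the part of cell content in these results was not tested.

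Of 11 tested calcium pumps and exchangers, 2 fell, 0 rose and 9 were not called by edgeR (median −0.15). DESeq2 called 4 lower and 0 higher and limma-voom 3 lower and 0 higher. DESeq2 also called more genes lower over the whole set, 712 against 361 by edgeR. Atp2a2, the widely expressed SERCA pump that refills the endoplasmic reticulum, fell from 1229, 1172 and 1332 to 879.5, 931 and 755 CPM (−0.54 ± 0.14, adjusted p = 0.04875). Atp2c1, the Golgi calcium and manganese pump, fell from 166.5, 154 and 160 to 112, 125 and 104 CPM (−0.49 ± 0.10, adjusted p = 0.0282). None of 7 genes of the mitochondrial calcium uniporter complex was called by edgeR, DESeq2 or limma-voom, with 1 at an unadjusted edgeR p under 0.05 (median 0.01).

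Of 19 tested genes of other depolarising, background and potassium channels, 2 rose, 1 fell and 16 were not called by edgeR (median 0.07), while DESeq2 called 3 higher and 3 lower and limma-voom 1 higher and 1 lower. Hcn4, a pacemaker channel subunit opened by hyperpolarisation, fell from 7.82, 12.3 and 10.4 to 4.93, 5.92 and 4.01 CPM (−1.04 ± 0.21, adjusted p = 0.0284). Ano1, a calcium-activated chloride channel, rose from 5.78, 8.04 and 5.65 to 15.5, 11.9 and 10.3 CPM (0.96 ± 0.20, adjusted p = 0.0292). Lrrc8c, a subunit of volume-regulated anion channels, rose from 6.01, 5.91 and 6.21 to 7.785, 14.1 and 12.2 CPM (0.91 ± 0.21, adjusted p = 0.0368). Ano1 and Lrrc8c are also expressed outside β cells, and summed duct markers were 937 to 1253 CPM in the controls and 1438 to 1834 CPM under the knockout label, whose part in these results was not tested.

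**Figure D5:**
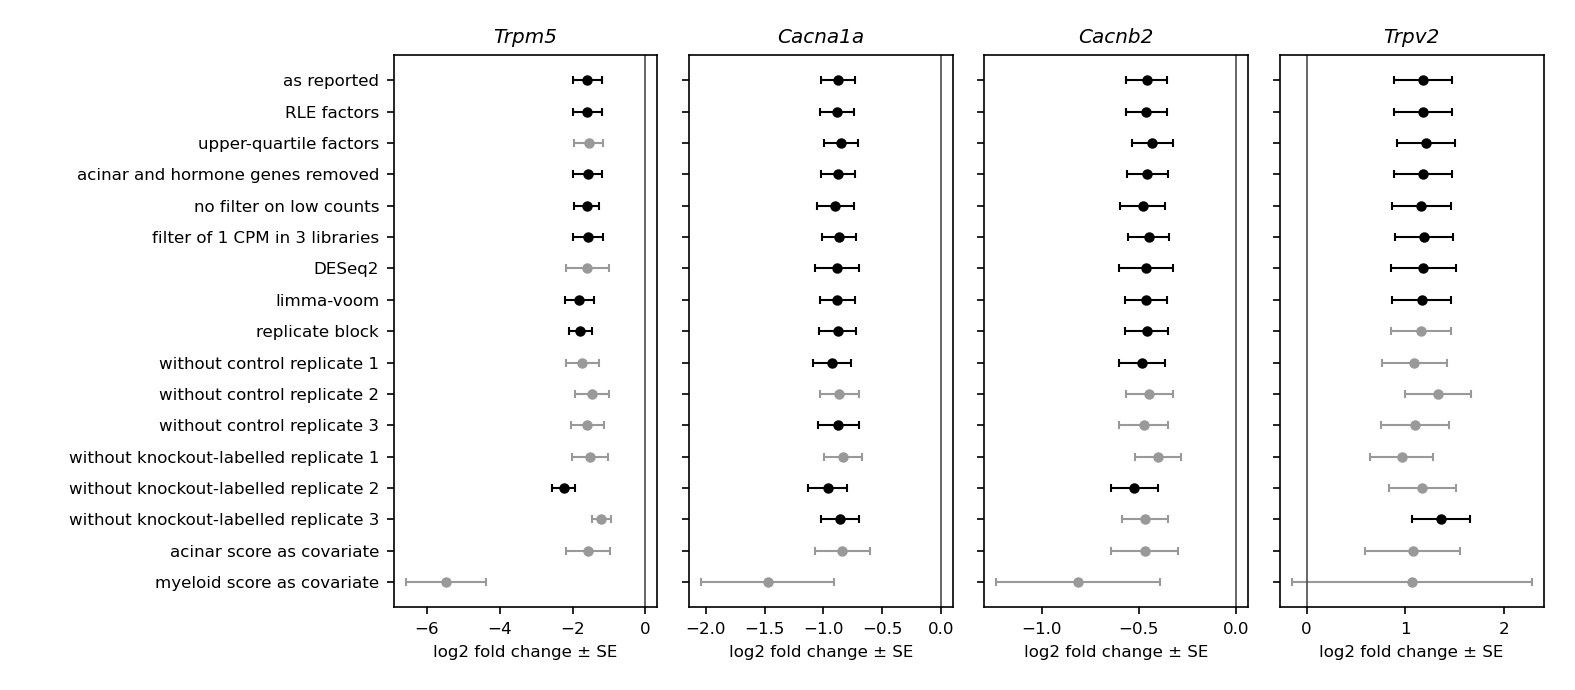
Log2 fold change ± SE of the 4 called genes as reported and under 16 other settings, black where the adjusted p was under 0.05 and grey where it was not. The sign stays the same under each setting, and the calls are lost for Trpm5 under 9, Trpv2 under 8, Cacnb2 under 6 and Cacna1a under 4.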

How the data were processed

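RNA was measured in isolated islets of 6 libraries. Per the labels' protocols, 10 ng of total RNA per sample was copied with poly-dT priming and SMART-Seq v4 chemistry, sheared by sonication and made into Ion Plus libraries, so no strand is recorded. The tools in the submitters' processing notes are featureCounts, Subread 1.5.0, STAR 2.4.2a and edgeR, and the build is mm10. The deposited counts are whole numbers per gene, not normalized, with exon coordinates and gene length, per the file headers. The annotation and the handling of multi-mapping reads are not stated there, so it is not known how reads shared by overlapping genes or close paralogs were counted.

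Counts were tested in edgeR 4.0.16 (R 4.3.3) with TMM factors, filterByExpr by group, a quasi-likelihood model, group as the only term and Benjamini-Hochberg adjustment over all 13736 genes passing, at 0.05. Standard errors come from the fold change and the F value. CPM uses TMM-scaled totals, and CPM per kb divides by the deposited gene length. Exon overlaps were found with GenomicRanges 1.54.1. The members, the gene and marker lists and the tests were chosen with earlier results of these data known. Values per library were given for called members and a fixed set of subunits at the level, and from each partner list up to 4 called genes with the smallest p. A few members are counted but not reported here by name. Of the 31 members, 22 had a RefSeq promoter entry. The fitting was tested on simulated counts with known fold changes in randomly chosen genes. These counts held no shift in cell content between groups, so that test does not cover such a shift. No pair of libraries in a group was close enough to be one library counted again (lowest chi-square per degree of freedom 11.1). Alternatives were RLE and upper-quartile factors, 2 other filters, removal of acinar and hormone genes, DESeq2 1.42.0, limma-voom (limma 3.58.1), a replicate block, an acinar or myeloid score as a covariate, and leaving out each library.

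Among the other marker lists, 1 of 9 alpha cell markers was called lower, 2 of 7 delta, PP and epsilon cell markers higher, 2 of 9 duct markers higher and 1 of 8 lymphocyte markers higher.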

Additional observations from a re-analysis of the deposited data

How the results depend on the processing

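Direction was the same as reported for each of the 31 rows with RLE or upper-quartile factors, either other filter, removal of acinar and hormone genes, DESeq2, limma-voom and the replicate block. Calls were less stable. Leaving out 1 library gave 0 to 3 members called lower and 0 to 1 called higher, with 5 to 8 and 1 to 2 at an unadjusted edgeR p under 0.05, and over all genes 8 to 434 called lower and 56 to 534 higher. Fewer samples entered these fits. With the acinar score as a covariate edgeR called 0 members lower and 0 higher (3 and 0 unadjusted) and 0 genes lower and 0 higher (620 and 806 unadjusted), while the log2 fold changes were −1.57 for Trpm5, −0.84 for Cacna1a, −0.47 for Cacnb2 and 1.07 for Trpv2. With the myeloid score it called 0 members in either direction (2 lower and 2 higher unadjusted) and 1 gene lower and 1 higher; that score separates the labels nearly completely, and it moved Trpm5 to −5.47 ± 1.10, Cacna1a to −1.47 ± 0.57, Cacnb2 to −0.81 and Trpv2 to 1.06 (adjusted p = 0.251, 0.4345, 0.535 and 0.781). Summed acinar markers also did not overlap between the labels, so neither covariate fit can fully separate cell content from label. DESeq2 called 712 genes lower and 990 higher, and no filter on low counts gave 620 lower. The cause of these larger numbers was not tested. The number of rows at the level was 29 to 31 on leaving out a library and 38 at a minimum of 0.5 CPM.

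Replicate numbers are shared by the groups, but samples of one number did not deviate together: the correlation of their deviations was −0.04, −0.01 and 0.06. With a replicate block 3 members were called lower and 0 higher, Trpv2 being lost (1 at an unadjusted p under 0.05, the call held with DESeq2 and limma-voom), and 287 genes lower and 539 higher.

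None of the rows whose sign turned was called as reported; the largest among them were Cacna2d3 at 0.50 and Trpc4 at −0.49. Leaving out each library gave ranges of −0.025 to 0.11 for Trpc4ap, −0.34 to 0.0053 for Cacnb3, −0.18 to 0.0475 for Cacnb1, −0.61 to 0.17 for Cacng4, −0.0027 to 0.17 for Trpm4, −0.37 to 0.23 for Mcoln3, −0.45 to 0.25 for Trpa1, −0.044 to 0.26 for Cacna1h, −0.59 to 0.28 for Cacna2d2 and −0.50 to 0.15 for Cacna2d4. With the acinar covariate the sign turned for Mcoln1 (−0.011), Mcoln3 (0.34), Scn3b (−0.027), Scn8a (0.043), Trpa1 (0.24) and Cacna2d3 (−0.25). With the myeloid covariate it turned for Cacnb3 (0.29), Cacnb1 (0.67), Cacng4 (2.33), Trpm7 (0.51), Trpc4 (1.28), Trpa1 (0.10) and Cacna1h (−0.33).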
